A study of Mus musculus with 48 samples.

Results

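The LIF-STAT3 pathway was followed here through 7 genes of the 24264 transcripts in the read count table: the ligand gene Lif, the receptor genes Lifr and Il6st, the kinase gene Jak1, the transcription factor gene Stat3, and the downstream genes Socs3 and Pim1. They were taken by name as the core of the pathway, and all 7 passed the filter on low counts with 15630 transcripts in all. Their levels were read in 48 mouse RNA-seq libraries from 20 conditions, from mouse embryonic fibroblasts (MEFs) through sorted reprogramming intermediates to induced pluripotent stem cells (iPSCs) and embryonic stem cells (ESCs).

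Leukaemia inhibitory factor (LIF) is a secreted cytokine that binds its receptor LIFR, which pairs with the shared signalling chain gp130, the product of Il6st. The receptor pair activates Janus kinases such as JAK1, which phosphorylate STAT3, and STAT3 then enters the nucleus and switches on target genes, among them Socs3, whose product feeds back to block the receptor and kinase, and Pim1, which encodes a survival kinase. Mouse ESCs are usually kept undifferentiated in medium with LIF, and gp130 also serves interleukin-6, interleukin-11 and oncostatin M, cytokines to which fibroblasts respond.

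Doxycycline-inducible cassettes with the order Myc, Klf4, Oct4 and Sox2 (MKOS) or Oct4, Klf4, Myc and Sox2 (OKMS) were compared. Each cassette, with a reverse transactivator under the CAG promoter, sat in an intron of Sp3 in TNG ESCs, which carry a GFP reporter at Nanog, and the transgenic MEFs came from chimeric E12.5 embryos made with those ESC lines, so that each cassette is represented by its own ESC line. MKOS, OKMS and WT MEFs, doxycycline-independent MKOS and OKMS iPSCs (iPSCs -dox), the same kinds of iPSCs in 2i medium, D6 iPSCs (an MKOS iPSC line), TNG MKOS, TNG OKMS, TNG and E14 ESCs were each sequenced in 2 libraries. The sorted populations had 3 libraries each and came from cultures in which a small minority of transgenic MEFs grew among WT MEFs with doxycycline and vitamin C. The labels give 10 or 15 days of this treatment. The populations were 2NG- (CD44 low, ICAM1 low, Nanog-GFP-), 3NG- (CD44 low, ICAM1 high, Nanog-GFP-) and 3NG+ (CD44 low, ICAM1 high, Nanog-GFP+), all E-CAD+ except for 2NG- and 3NG- cells of OKMS reprogramming, which were also taken as E-CAD- cells. MKOS E-CAD- cells were not analysed here.

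LIF was itself a component of the medium. The growth label gives 100 units of LIF for MEFs and ESCs alike, whereas the study's methods list LIF for the ESC, iPSC and reprogramming medium and FGF2 with heparin, without LIF, for MEFs. The difference in medium between MEFs and the other cells cannot be told apart from the difference in cell state, and neither source describes the 2i medium apart from the other media. What is reported is transcript abundance, and STAT3 phosphorylation was not measured.

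Libraries held 1429717 to 14174725 reads on transcripts, so that 3 reads of a gene corresponded to 0.212 to 2.10 CPM (reads of a gene per 1000000 reads on transcripts). Each read marks the cap end of a transcript, so CPM can be set side by side between genes without correction for length. The labels of the cell types were checked with summed marker genes: 10 fibroblast genes summed to 3164 to 5561 CPM in MEFs and 6.01 to 31.0 CPM in iPSCs and ESCs, and 8 pluripotency genes summed to 2.57 to 11.5 CPM in MEFs, where Nanog had no read, and to 10747 to 23378 CPM in iPSCs and ESCs. The fibroblast genes summed to 567 to 983 CPM in the OKMS E-CAD- libraries, 81.3 to 301 CPM in OKMS E-CAD+ 2NG- and 3NG- libraries and 407 to 1008 CPM in the matching MKOS libraries. In such sorted bulk samples, fewer cells of a type and less RNA per cell cannot be told apart.

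The promoters of the receptor chain, the kinase, STAT3 and its feedback target are shown because these 4 genes were called in more of the comparisons that follow than the other members. The sequences are RefSeq windows of build GRCm38.p6, 250 bases upstream of an annotated transcript start, 5′ to 3′ on the strand of the gene, in lower case. Genes can have several such starts: the Socs3 window lies inside the RefSeq span of the gene given in the next paragraph, and the Jak1 and Stat3 windows overlap theirs. The pattern TTCNNNGAA, whose fixed bases read the same on both strands, is the core of a STAT binding motif. It was searched in all windows and is in capitals where it occurred.
Socs3 (chr11:117969367-117969616, minus strand): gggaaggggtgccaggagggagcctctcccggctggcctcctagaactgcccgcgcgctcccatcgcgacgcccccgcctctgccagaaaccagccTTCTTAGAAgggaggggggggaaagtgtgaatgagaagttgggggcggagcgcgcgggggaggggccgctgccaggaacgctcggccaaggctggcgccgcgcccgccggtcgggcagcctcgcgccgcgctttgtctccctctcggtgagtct
Il6st (chr13:112463820-112464069, plus strand): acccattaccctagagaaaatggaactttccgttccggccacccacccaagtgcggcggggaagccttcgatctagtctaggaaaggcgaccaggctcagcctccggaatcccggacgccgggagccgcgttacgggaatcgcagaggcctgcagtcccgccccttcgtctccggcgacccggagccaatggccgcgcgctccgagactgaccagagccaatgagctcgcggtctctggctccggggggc
Jak1 (chr4:101265224-101265473, minus strand): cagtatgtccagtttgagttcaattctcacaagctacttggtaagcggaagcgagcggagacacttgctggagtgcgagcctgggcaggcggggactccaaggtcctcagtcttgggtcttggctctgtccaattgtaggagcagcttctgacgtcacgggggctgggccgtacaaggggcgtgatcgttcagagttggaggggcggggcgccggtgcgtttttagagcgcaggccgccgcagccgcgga
Stat3 (chr11:100939541-100939790, minus strand): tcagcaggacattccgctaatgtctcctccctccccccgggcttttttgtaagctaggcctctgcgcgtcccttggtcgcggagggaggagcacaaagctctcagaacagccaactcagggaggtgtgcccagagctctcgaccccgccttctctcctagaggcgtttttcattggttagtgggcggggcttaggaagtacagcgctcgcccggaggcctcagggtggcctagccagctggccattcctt
The Socs3 window was the only window among the 9 of the 7 genes (Lifr and Pim1 have 2 each) with the pattern, as TTCTTAGAA beginning 154 bases before the start. Of all 32851 windows 7.02% held it, so its presence in a single member is a description of these letters only. The Socs3 window was 71.6% G or C with 26 CpG dinucleotides, Il6st 66% with 26, Jak1 61.2% with 19 and Stat3 60.8% with 13, against medians of 52.4% and 6 over all windows.

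The 7 genes lie on 5 chromosomes: Lif (11:4257568-4272514, plus strand), Stat3 (11:100886806-100939594, minus strand) and Socs3 (11:117966079-117970336, minus strand) share chromosome 11, with Lifr at 15:7090610-7197489 (plus strand), Il6st at 13:112464070-112506860 (plus strand), Jak1 at 4:101151974-101265282 (minus strand) and Pim1 at 17:29490785-29496111 (plus strand), all in GRCm38. Over the 48 libraries they drew 898 reads for Lif, 5715 for Lifr, 6443 for Pim1, 9682 for Socs3, 10222 for Il6st, 12913 for Stat3 and 13138 for Jak1. Lif, with the fewest reads, was the least precisely measured. Only 79.25% of the Pim1 reads mapped to a single place, so its values are uncertain, whereas 99.69% did for Lifr.

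Of the 7 genes, 6 were highest in a MEF condition and Pim1 was highest in D6 iPSCs. In MEFs, the median over 6 libraries was 142 CPM for Jak1 (98.0 to 197), 107 CPM for Il6st (53.3 to 174), 101 CPM for Stat3 (66.7 to 149), 59.0 CPM for Socs3 (30.4 to 120.1), 20.7 CPM for Lifr (8.40 to 53.4), 9.41 CPM for Pim1 (4.20 to 27.7) and 5.18 CPM for Lif (1.28 to 14.5). In the 18 iPSC and ESC libraries the order was another, with Pim1 at a median of 29.2 CPM (7.92 to 47.7), Stat3 at 25.1 CPM (10.3 to 55.2), Socs3 at 24.5 CPM (6.19 to 52.4), Lifr at 19.0 CPM (13.7 to 34.4), Jak1 at 17.9 CPM (11.3 to 39.8), Il6st at 15.2 CPM (7.01 to 33.4) and Lif at 1.97 CPM (0 to 7.84). The MEF ranges of Il6st, Jak1 and Stat3 lay wholly above those of the pluripotent cells, and the ranges of the other 4 genes overlapped.

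**Figure D1:**
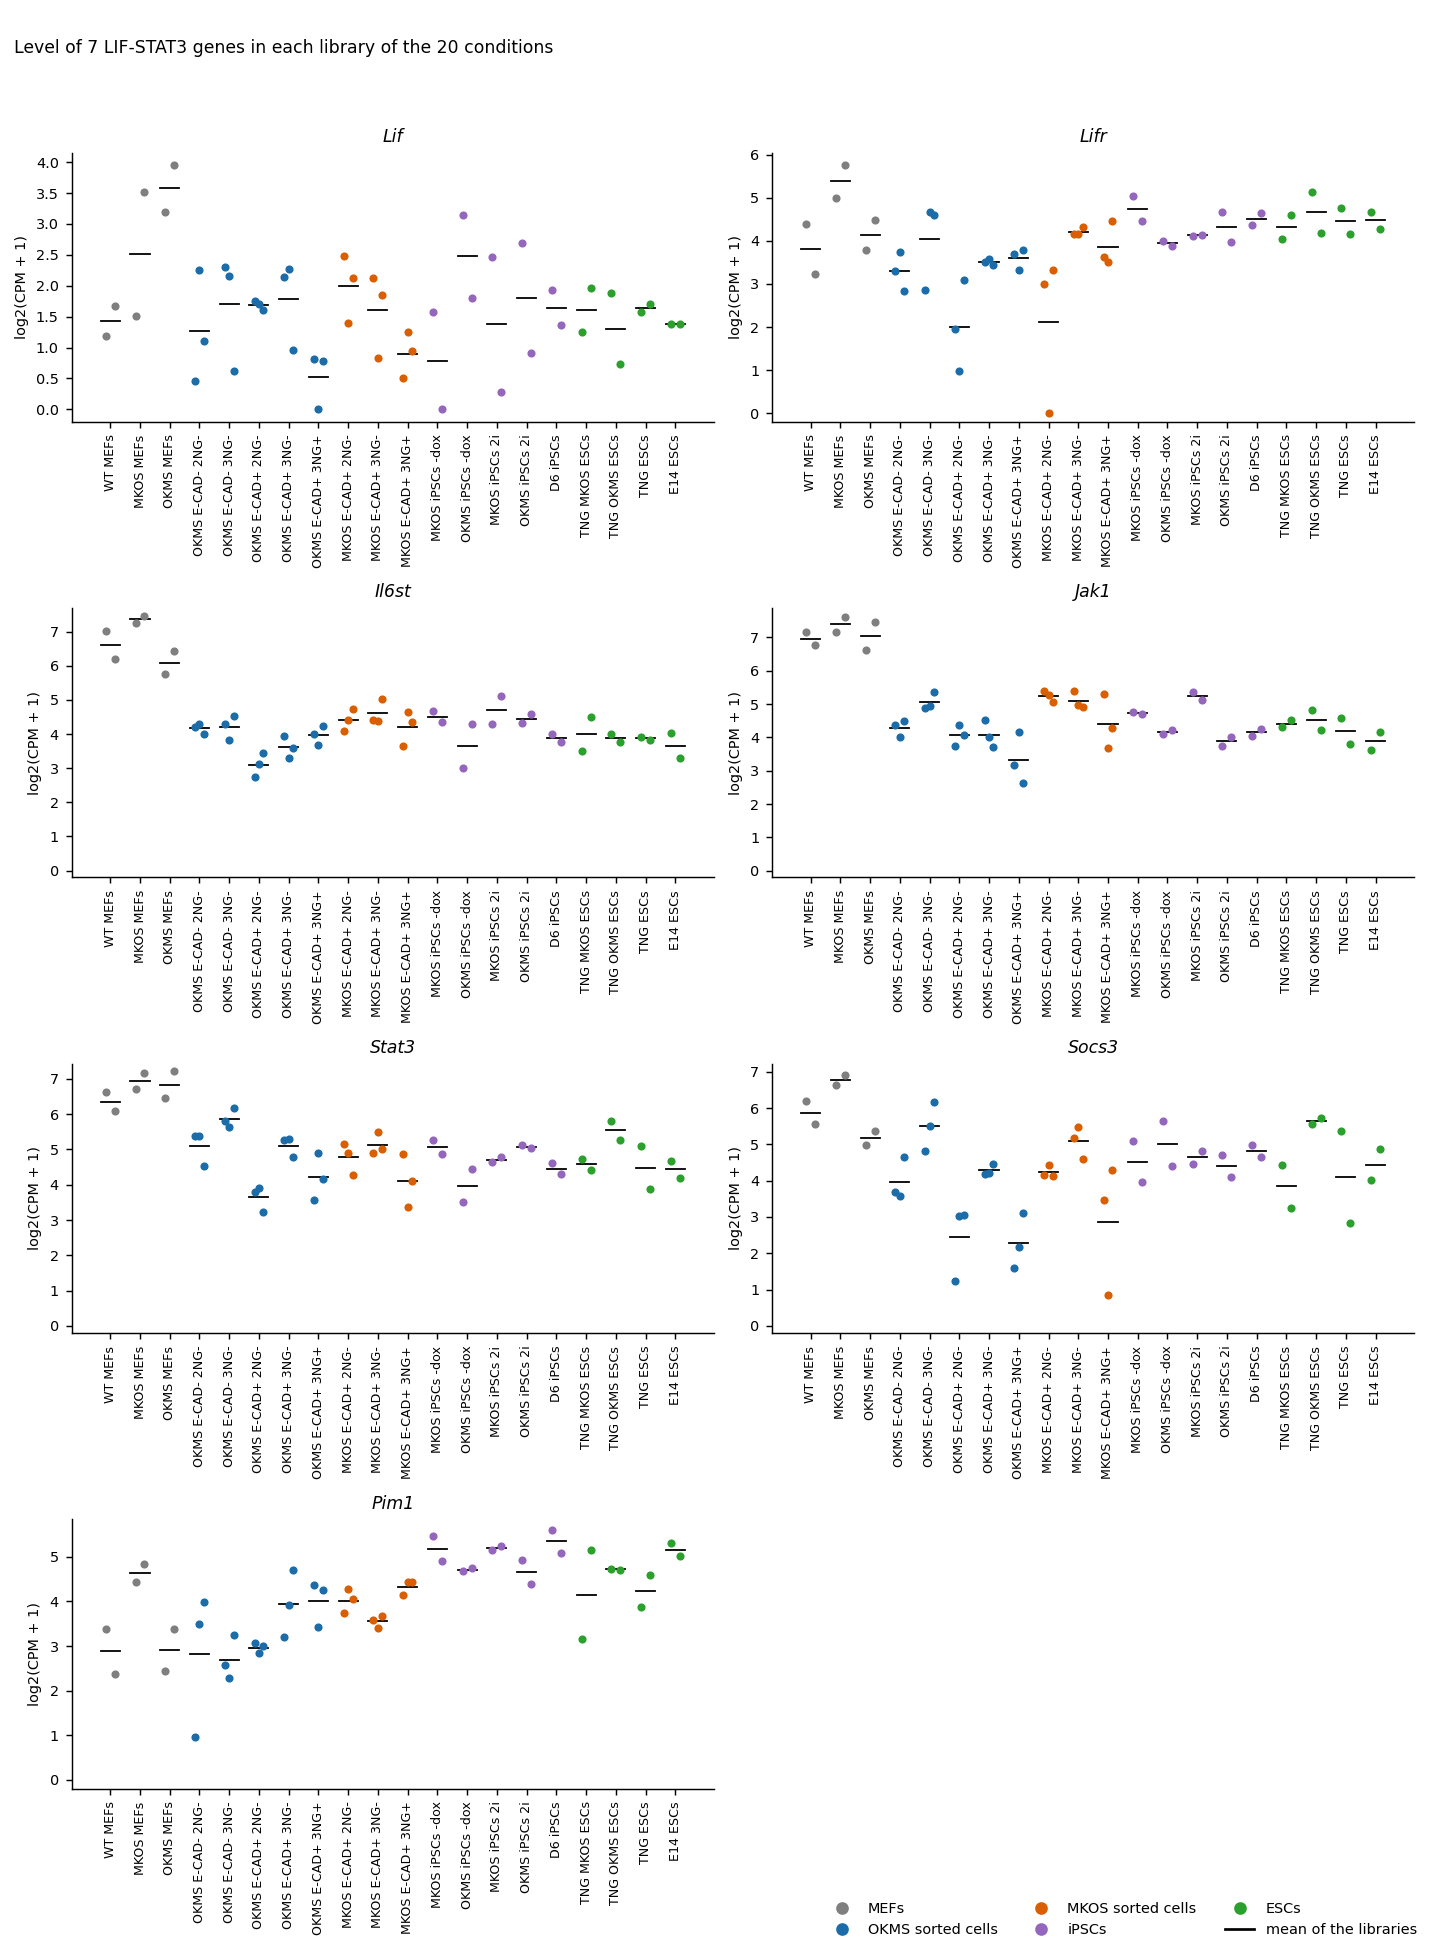
Level of each of the 7 genes in every library, as log2(CPM + 1) on the vertical axis, with the 20 conditions along the horizontal axis, points for libraries and bars for the mean of each condition. Il6st and Jak1 are higher in every MEF library than in every other library. The Stat3 level of 1 OKMS E-CAD- 3NG- library (71.1 CPM) reaches that of the lowest MEF library (66.7 CPM). By condition mean, Lifr is lowest in OKMS E-CAD+ 2NG- cells (0.967 to 7.48 CPM) and Socs3 in OKMS E-CAD+ 3NG+ cells (2.02 to 7.58 CPM). The lowest single libraries are MKOS E-CAD+ 2NG- 2 for Lifr (0 CPM) and MKOS E-CAD+ 3NG+ 2 for Socs3 (0.790 CPM). Pim1 has its highest mean in D6 iPSCs (47.7 and 33.1 CPM).

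Ranked over the 20 conditions, the highest mean exceeded the lowest 25.2 times for Socs3, 23.1 times for Lif, 21.1 times for Il6st, 17 times for Jak1, 11.2 times for Lifr, 10.6 times for Stat3 and 7.04 times for Pim1. Neighbours in these orders were mostly not separated: of 19 neighbouring pairs of conditions, the ranges of the libraries overlapped in 19 for Lif and Stat3, 18 for Lifr and Socs3, and 17 for Il6st, Jak1 and Pim1. Across the 20 condition means on the log2(CPM + 1) scale, Il6st and Jak1 had a Pearson r of 0.92, Jak1 and Stat3 0.85, Il6st and Stat3 0.85, and Stat3 and Socs3 0.78, while Pim1 lay between -0.31 and 0.50 with the other 6 genes. These r values are a description over 20 means in which all genes share the same libraries.

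The first comparison asked how the pathway differs between fibroblasts and ESCs of the same cassette lines. The MEFs came from chimeric embryos, and the share of their cells that carried a cassette is not given. From MKOS and OKMS MEFs to TNG MKOS and TNG OKMS ESCs (4 libraries each), 5 of the 7 genes fell (edgeR, FDR at most 0.05), in a comparison where 50.9% of all tested genes were called and 25% were lower. Il6st read 153, 174, 53.3 and 85.0 CPM in the MEFs and 10.3, 21.5, 14.9 and 12.7 CPM in the ESCs, a fold change of 7.42 to the lower side (log2 difference -2.89 ± 0.30 SE, FDR 1.0e-10). Every MEF library was above every ESC library for this gene. Jak1 read 143, 197, 98.0 and 175 CPM in MEFs against 18.8, 21.8, 27.2 and 17.5 CPM in ESCs, 7.30-fold lower (-2.87 ± 0.28, FDR 2.7e-11), again without overlap. Stat3 read 105, 143, 86.5 and 149 CPM against 25.7, 20.4, 55.2 and 37.4 CPM, 3.73-fold lower (-1.90 ± 0.29, FDR 9.4e-07). The TNG OKMS ESCs were the higher of the ESC pairs for Stat3, and still below the MEFs of this comparison. These were the 3 of 7 genes whose libraries did not overlap, as was the case for 43.2% of all tested genes.

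The other 4 genes were less clear between MEFs and ESCs. Socs3, the feedback inhibitor, read 99.5, 120.1, 30.4 and 40.3 CPM in MEFs and 20.6, 8.58, 46.6 and 52.4 CPM in ESCs, 2.27-fold lower (-1.18 ± 0.50, FDR 0.043). The ranges overlapped, because TNG OKMS ESCs were above OKMS MEFs, and the call ended when any of MKOS MEFs 1 or 2, OKMS MEFs 1 or 2, TNG MKOS ESCs 2, or TNG OKMS ESCs 1 or 2 was left out (FDR 0.059 to 0.17). Lif, the ligand, read 1.84, 10.4, 8.17 and 14.5 CPM against 1.37, 2.91, 2.68 and 0.656 CPM (-2.20 ± 0.89, FDR 0.037), a call lost without MKOS MEFs 2, OKMS MEFs 2, TNG MKOS ESCs 1 or 2 or TNG OKMS ESCs 2 (FDR 0.062 to 0.23). Lifr (-0.32 ± 0.49, FDR 0.63) and Pim1 (0.77 ± 0.41, FDR 0.11) did not pass the test, with 95% intervals of -1.27 to 0.63 and -0.02 to 1.57. In the WT MEFs, which were outside this comparison, Il6st (129.7 and 72.1 CPM), Jak1 (141 and 107 CPM) and Stat3 (98.1 and 66.7 CPM) were also above every ESC library. The other called genes were not: Lif in WT MEFs (1.28 and 2.19 CPM) lay inside the ESC range (0.656 to 2.91 CPM). Socs3 was at 72.1 and 46.0 CPM in WT MEFs, where the ESCs reached 52.4 CPM.

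The next comparisons asked what had happened to the pathway by the 2NG- stage. In MKOS E-CAD+ 2NG- cells, 5 of the 7 genes had fallen from MKOS MEFs (27% of all tested genes called, 12% lower): Lifr, Il6st, Jak1, Stat3 and Socs3. Lifr read 31.0 and 53.4 CPM in MKOS MEFs and 7.04, 0 and 8.94 CPM in 2NG- cells (-2.97 ± 0.64, 7.86-fold lower, FDR 0.00044), so the MEF libraries lay well above all 3 sorted libraries. In the second 2NG- library no Lifr read was found among its reads (3 reads correspond to 0.443 CPM in that library). Il6st fell 8.14-fold from 153 and 174 CPM to 15.9, 20.2 and 25.7 CPM (-3.02 ± 0.36, FDR 2.9e-08). Jak1 and Stat3 fell 4.68-fold and 4.6-fold, and Socs3 6.27-fold from 99.5 and 120.1 CPM to 16.7, 20.7 and 16.4 CPM (-2.65 ± 0.63, FDR 0.0014). Lif (-0.89 ± 1.08, FDR 0.58) and Pim1 (-0.69 ± 0.51, FDR 0.34) were not called. The ranges of MEFs and 2NG- cells did not overlap for 6 of the 7 genes, all but Lif, and for 57.4% of all tested genes.

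In OKMS reprogramming the same 5 genes were called in E-CAD+ 2NG- cells against OKMS MEFs (29.2% of all tested genes called, 13.5% lower), and Stat3 had the largest difference of the 7. Stat3 read 86.5 and 149 CPM in OKMS MEFs and 13.0, 13.9 and 8.40 CPM in E-CAD+ 2NG- cells (-3.22 ± 0.38, 9.33-fold lower, FDR 2.3e-08). Il6st fell 7.98-fold to 5.62, 7.74 and 9.88 CPM, Jak1 7.87-fold to 12.3, 19.7 and 15.9 CPM, and Socs3 6.13-fold to 1.36, 7.09 and 7.27 CPM. Lifr read 12.8 and 21.4 CPM in OKMS MEFs and 2.90, 0.967 and 7.48 CPM in 2NG- cells (-1.87 ± 0.64, FDR 0.025), a call lost without OKMS MEFs 2, OKMS E-CAD+ 2NG- 1 or OKMS E-CAD+ 2NG- 2 (FDR 0.088 to 0.15). Lif (-2.21 ± 1.10, FDR 0.13) and Pim1 (0.12 ± 0.55, FDR 0.92) were not called. The ranges did not overlap for 6 of the 7 genes, all but Pim1, and for 51.6% of all tested genes.

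In the E-CAD- 2NG- cells of OKMS reprogramming 3 genes were called against the same OKMS MEFs, all lower (21.8% of all tested genes called, 10.1% lower). Jak1 read 19.7, 15.1 and 21.7 CPM (-2.86 ± 0.34, 7.26-fold lower, FDR 5.8e-08), Il6st 17.6, 18.5 and 15.2 CPM (-2.03 ± 0.36, 4.09-fold, FDR 4.7e-05) and Stat3 40.6, 40.5 and 22.2 CPM (-1.78 ± 0.37, 3.43-fold, FDR 0.00036). The ranges did not overlap for 6 of the 7 genes, all but Pim1, and for 46.6% of all tested genes. Socs3 at 12, 11 and 24.1 CPM was below the MEF libraries but did not pass (-1.20 ± 0.64, FDR 0.18), nor did Lif (-2.77 ± 1.13, FDR 0.074; 0.030 with DESeq2), Lifr (-0.93 ± 0.64, FDR 0.31) or Pim1 (0.26 ± 0.55, FDR 0.80). The OKMS MEFs serve both OKMS comparisons, so their values enter each. Over the 7 genes the median log2 difference was -1.90 from MEFs to ESCs, -2.23 to MKOS 2NG-, -2.62 to OKMS E-CAD+ 2NG- and -1.78 to OKMS E-CAD- 2NG- cells, beside a median of 0 over all tested genes in each.

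**Figure D2:**
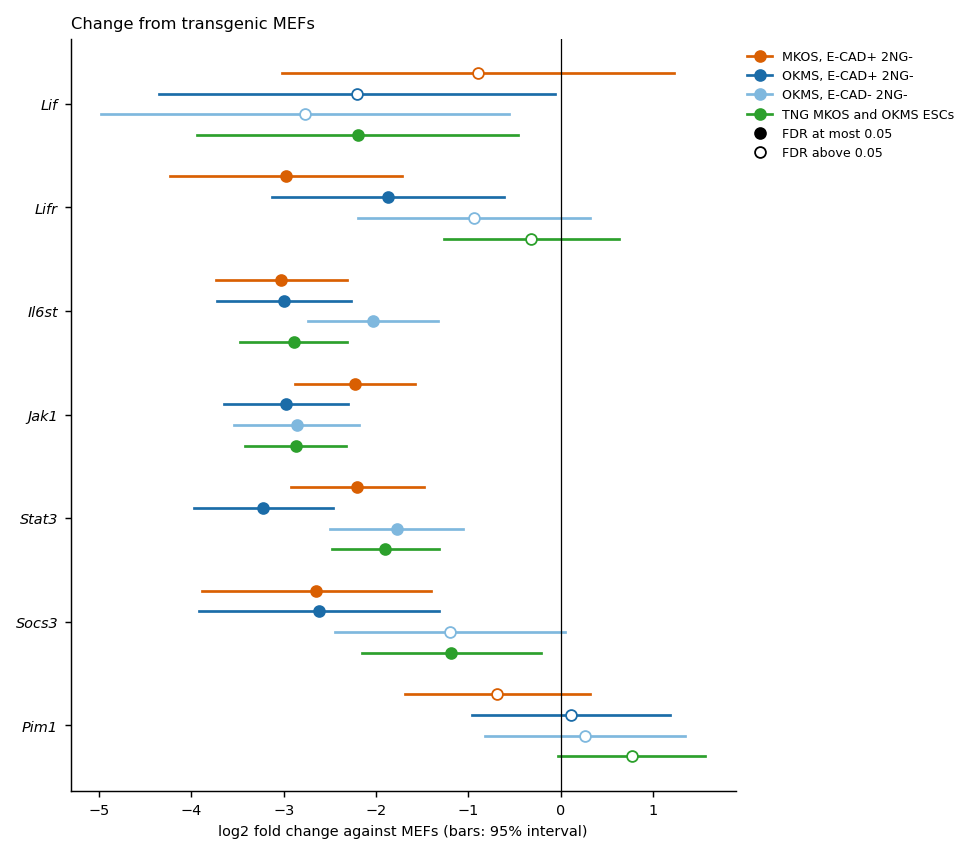
Log2 fold change of the 7 genes from MEFs to TNG MKOS and OKMS ESCs and to the 2NG- populations of each cassette, with 95% intervals; filled points passed an FDR of 0.05. Il6st, Jak1 and Stat3 sit between -3.22 and -1.78 in all 4 comparisons, whereas the intervals of Pim1 include 0 in each.

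Whether the fall from MEFs to E-CAD+ 2NG- cells differed between cassettes was tested directly, as the difference between the changes. No member was called (1.35% of all tested genes were, and none of the 7 had an unadjusted p under 0.05 in edgeR, with 0 called by DESeq2). For Stat3, the additional fall with OKMS was -1.02 ± 0.53 on the log2 scale (95% interval -2.06 to 0.02, FDR 0.40), and for Jak1 -0.75 ± 0.48 (-1.69 to 0.19, FDR 0.53). The other 5 genes lay between -1.32 (Lif) and 1.10 (Lifr), with FDR values of at least 0.68.

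The cassettes were then compared within matched sorted populations. In E-CAD+ 2NG- cells, Il6st, Jak1 and Stat3 were lower with OKMS than with MKOS, which is 3 of the 7 genes where 5.07% of all tested genes were called and 2.84% were lower. Il6st read 5.62, 7.74 and 9.88 CPM with OKMS and 15.9, 20.2 and 25.7 CPM with MKOS (-1.28 ± 0.34, 2.43-fold lower, FDR 0.018). Jak1 read 12.3, 19.7 and 15.9 CPM against 41.1, 37.3 and 32.1 CPM (-1.13 ± 0.31, 2.18-fold, FDR 0.024). Stat3 read 13.0, 13.9 and 8.40 CPM against 34.9, 28.8 and 18.4 CPM (-1.16 ± 0.35, 2.24-fold, FDR 0.041). The cassettes did not overlap for 5 of the 7 genes, these 3 with Socs3 and Pim1, as for 25% of all tested genes. Each call depended on single libraries, and between 0 and 2 members were called with any of the 6 libraries left out. Il6st was lost without OKMS 2NG- 1 or 2 or MKOS 2NG- 3 (FDR 0.062 to 0.11), Jak1 without OKMS 2NG- 1 or 3 or MKOS 2NG- 1 or 2 (0.063 to 0.13), and Stat3 without any of these libraries except MKOS 2NG- 3 (0.070 to 0.21). Il6st was lower already in OKMS MEFs (53.3 and 85.0 CPM) than in MKOS MEFs (153 and 174 CPM). Its change from MEFs to 2NG- cells differed by only 0.03 ± 0.54 on the log2 scale between cassettes. The MEF ranges of Jak1 and Stat3 overlapped between cassettes. MEFs were not tested between cassettes.

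Socs3 (1.36, 7.09 and 7.27 CPM with OKMS, 16.7, 20.7 and 16.4 CPM with MKOS; -1.66 ± 0.62) and Pim1 (7.33, 6.12 and 6.98 CPM with OKMS, 12.3, 18.3 and 15.6 CPM with MKOS; -1.06 ± 0.48) were also lower in each OKMS library than in each MKOS library of 2NG- cells. Neither passed the test over all genes (FDR 0.12 and 0.22), nor did Lif (-0.44 ± 1.00, FDR 0.88) or Lifr (-0.25 ± 0.60, FDR 0.89). Socs3 was lower already in OKMS MEFs (30.4 and 40.3 CPM) than in MKOS MEFs (99.5 and 120.1 CPM). The same held for Pim1, at 4.45 and 9.39 CPM in OKMS MEFs and 20.8 and 27.7 CPM in MKOS MEFs. Fibroblast markers moved the same way, at 81.3 to 275 CPM in the 3 OKMS and 407 to 819 CPM in the 3 MKOS libraries of E-CAD+ 2NG- cells, and pluripotency markers summed to 741 to 3351 CPM and 2182 to 3517 CPM; their part in the results was not tested.

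In 3NG- cells the cassettes differed in none of the 7 genes by edgeR (2.17% of all tested genes called) or DESeq2, with 2 at an unadjusted p under 0.05. These were Il6st, at 14.4, 8.81 and 11.1 CPM with OKMS and 20.3, 19.8 and 31.4 CPM with MKOS (-0.93 ± 0.33, FDR 0.15), and Jak1, at 21.9, 15.2 and 12 CPM against 41.1, 30.4 and 28.8 CPM (-0.91 ± 0.31, FDR 0.12). The cassettes did not overlap for 4 of the 7 genes, these with Lifr and Socs3, and for 21.7% of all tested genes. Lifr was at 10.4, 11 and 9.89 CPM with OKMS and 17, 17 and 19.0 CPM with MKOS (-0.64 ± 0.57, FDR 0.68), and Socs3 at 17, 17.6 and 21.2 CPM against 35.1, 43.9 and 23.3 CPM (-0.76 ± 0.58, FDR 0.60). Stat3 was at 37.4, 38.1 and 26.4 CPM with OKMS and 28.7, 44.2 and 31.5 CPM with MKOS, overlapping values whose difference had a 95% interval of -0.57 to 0.74 on the log2 scale, and neither Lif (0.36 ± 1.00, FDR 0.94) nor Pim1 (0.67 ± 0.47, FDR 0.55) was called.

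In 3NG+ cells no member was called either by edgeR (0.685% of all tested genes called), and 1 had an unadjusted p under 0.05. Jak1 read 8.07, 16.8 and 5.15 CPM with OKMS and 38.1, 11.9 and 18.3 CPM with MKOS (-1.16 ± 0.34, FDR 0.096), overlapping through OKMS 3NG+ 2 and MKOS 3NG+ 2, and DESeq2 called it at an adjusted p of 0.042. The other 6 genes lay between -0.98 (Socs3) and 0.17 (Stat3), with FDR values of at least 0.54.

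**Figure D3:**
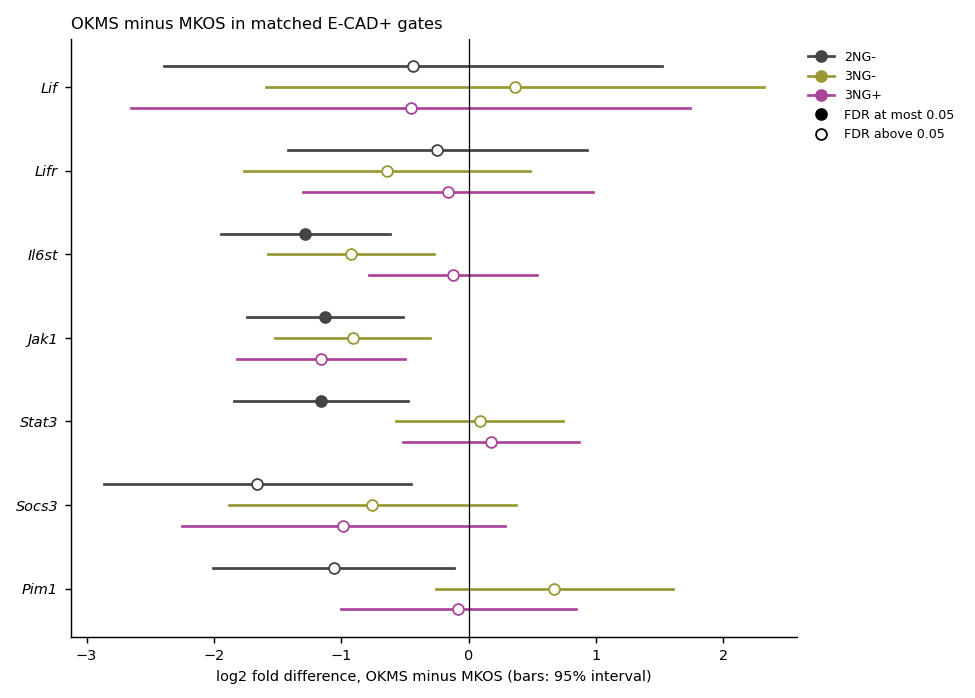
Log2 difference of OKMS minus MKOS for the 7 genes in E-CAD+ 2NG-, 3NG- and 3NG+ cells, with 95% intervals; filled points passed an FDR of 0.05. The 3 filled points are Il6st (-1.28), Jak1 (-1.13) and Stat3 (-1.16) in 2NG- cells. For Lifr, Il6st, Jak1 and Socs3 all 3 values lie below 0.

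OKMS cells that had gained E-CAD were compared with those that had not. In 2NG- cells Stat3 was the single member called (2.38% of all tested genes were called, 0.691% lower): it read 13.0, 13.9 and 8.40 CPM in E-CAD+ and 40.6, 40.5 and 22.2 CPM in E-CAD- cells (-1.45 ± 0.35, 2.72-fold lower, FDR 0.015). The populations did not overlap for Stat3, Il6st and Socs3, 3 of the 7 genes, or for 17.1% of all tested genes. The call was lost without E-CAD- 2NG- 1, E-CAD- 2NG- 2 or E-CAD+ 2NG- 3 (FDR 0.059 to 0.092). Il6st (-0.97 ± 0.34, FDR 0.14) and Socs3 (-1.42 ± 0.62, FDR 0.26) had an unadjusted p under 0.05 on the same side, and the other 4 genes lay between -0.94 (Lifr) and 0.56 (Lif), with FDR values of at least 0.50. Fibroblast markers summed to 626 to 720 CPM in the E-CAD- 2NG- cells and 81.3 to 275 CPM in the E-CAD+ cells, and their part in the difference was not tested.

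In 3NG- cells no member was called between E-CAD+ and E-CAD- by edgeR (1.75% of all tested genes called) or DESeq2, and 3 had an unadjusted p under 0.05. Pim1 read 8.21, 14 and 25.2 CPM in E-CAD+ and 4.95, 3.84 and 8.44 CPM in E-CAD- cells (1.56 ± 0.51, FDR 0.12), with overlap by the lowest E-CAD+ library. Socs3 was on the other side, at 17, 17.6 and 21.2 CPM in E-CAD+ and 27.2, 44.6 and 70.5 CPM in E-CAD- cells (-1.23 ± 0.58, FDR 0.39), as was Jak1 (-0.88 ± 0.31, FDR 0.18). The other 4 genes lay between -0.67 (Stat3) and 0.11 (Lif), with FDR values of at least 0.42. The populations did not overlap for Jak1, Stat3 and Socs3, 3 of the 7 genes, or for 16.2% of all tested genes.

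The steps between neighbouring populations asked whether the pathway moved as ICAM1 and then Nanog-GFP came up. From 2NG- to 3NG- with MKOS, 0 of 7 genes were called by edgeR or DESeq2 (0.39% of all tested genes called), and 1 had an unadjusted p under 0.05: Lifr, at 7.04, 0 and 8.94 CPM before and 17, 17 and 19.0 CPM after (1.62 ± 0.59, FDR 0.41). The other 6 genes lay between -0.59 (Pim1) and 0.85 (Socs3), with FDR values of at least 0.848, and the populations did not overlap for 3 of the 7 genes, Lifr, Socs3 and Pim1, or for 16.7% of all tested genes. With OKMS, 0 of 7 were called by edgeR (0.0384% of all tested genes called), 1 was called by DESeq2 and 4 had an unadjusted p under 0.05. Stat3 went from 13.0, 13.9 and 8.40 CPM to 37.4, 38.1 and 26.4 CPM (1.51 ± 0.35, FDR 0.17; 0.026 with DESeq2), Socs3 from 1.36, 7.09 and 7.27 CPM to 17, 17.6 and 21.2 CPM (1.75 ± 0.62, FDR 0.83), and Lifr from 2.90, 0.967 and 7.48 CPM to 10.4, 11 and 9.89 CPM (1.22 ± 0.60, FDR 0.94). Pim1 was the fourth, from 7.33, 6.12 and 6.98 CPM to 8.21, 14 and 25.2 CPM (1.14 ± 0.49, FDR 0.94). For these 4 of the 7 genes every 3NG- library lay above every 2NG- library, whereas 7.68% of all tested genes did not overlap. Lif (0.22 ± 1.01), Il6st (0.48 ± 0.34) and Jak1 (95% interval -0.64 to 0.64) had unadjusted p values above 0.05.

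From 3NG- to 3NG+ the values of Socs3 were lower with both cassettes without a call. With MKOS, 0 of 7 genes were called by edgeR or DESeq2 (1.58% of all tested genes called) and 3 had an unadjusted p under 0.05, Socs3 reading 35.1, 43.9 and 23.3 CPM before and 10.1, 0.790 and 18.6 CPM after (-1.59 ± 0.59, FDR 0.16). With OKMS, 0 of 7 were called by edgeR (6.26% of all tested genes called), 1 by DESeq2, and 2 had an unadjusted p under 0.05: Socs3, from 17, 17.6 and 21.2 CPM to 2.02, 3.5 and 7.58 CPM (-1.82 ± 0.65, FDR 0.082; 0.040 with DESeq2 and 0.036 with replicate number as a block), and Stat3 (-0.73 ± 0.35, FDR 0.22). The populations did not overlap for 3 of the 7 genes with MKOS (Stat3, Socs3 and Pim1; 24.2% of all tested genes) and 2 with OKMS (Lif and Socs3; 22.1%). For Socs3, of 12 alternative analyses 1 gave a call with MKOS and 3 with OKMS. The change did not differ detectably between cassettes for any member (0 called by edgeR or DESeq2, 0 at an unadjusted p under 0.05, 0.0256% of all tested genes called), with a 95% interval of -1.91 to 1.45 for Socs3 and differences between -0.82 (Lif) and 0.80 (Il6st). Stat3 with MKOS (-0.81 ± 0.34, FDR 0.23) and Pim1 with MKOS (1.02 ± 0.47, FDR 0.28) made up the other values with an unadjusted p under 0.05. The members not named here lay between -1.12 (Lif) and -0.12 (Lifr) with MKOS, with FDR values of at least 0.52, and between -1.93 (Lif) and 0.63 (Il6st) with OKMS, with FDR values of at least 0.24.

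The 3NG+ cells came from cultures with doxycycline and vitamin C, whereas the iPSCs -dox were doxycycline-independent. This difference in culture cannot be told apart from the difference in cell state. From 3NG+ cells to doxycycline-independent iPSCs, Socs3 rose with OKMS, the single call among the 7 genes (0.614% of all tested genes called, 0.301% higher). It read 2.02, 3.5 and 7.58 CPM in OKMS E-CAD+ 3NG+ cells and 49.3 and 20.1 CPM in OKMS iPSCs -dox (2.91 ± 0.69, 7.49-fold higher, FDR 0.035). The libraries did not overlap for 4 of the 7 genes, Lif, Lifr, Socs3 and Pim1, or for 21.5% of all tested genes. The call of Socs3 was lost without OKMS 3NG+ 1, OKMS 3NG+ 2 or OKMS iPSCs -dox 1 (FDR 0.11 to 0.55). Lif (0.757, 0 and 0.715 CPM before, 7.84 and 2.49 CPM after; 3.05 ± 1.19, FDR 0.30) and Jak1 (0.89 ± 0.37, FDR 0.32) had an unadjusted p under 0.05, and the other 4 genes lay between -0.31 (Il6st) and 0.58 (Pim1), with FDR values of at least 0.696. With MKOS no member was called by edgeR (2.14% of all tested genes called) or DESeq2, and 1, Stat3, had an unadjusted p under 0.05 (0.86 ± 0.37, FDR 0.26); Socs3 was at 10.1, 0.790 and 18.6 CPM before and 33.1 and 14.5 CPM after (1.21 ± 0.64, FDR 0.38). The other 5 genes lay between 0.11 (Lif) and 0.86 (Pim1), with FDR values of at least 0.45, and the libraries did not overlap for Stat3 and Pim1, 2 of the 7 genes, or for 28.7% of all tested genes.

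**Figure D4:**
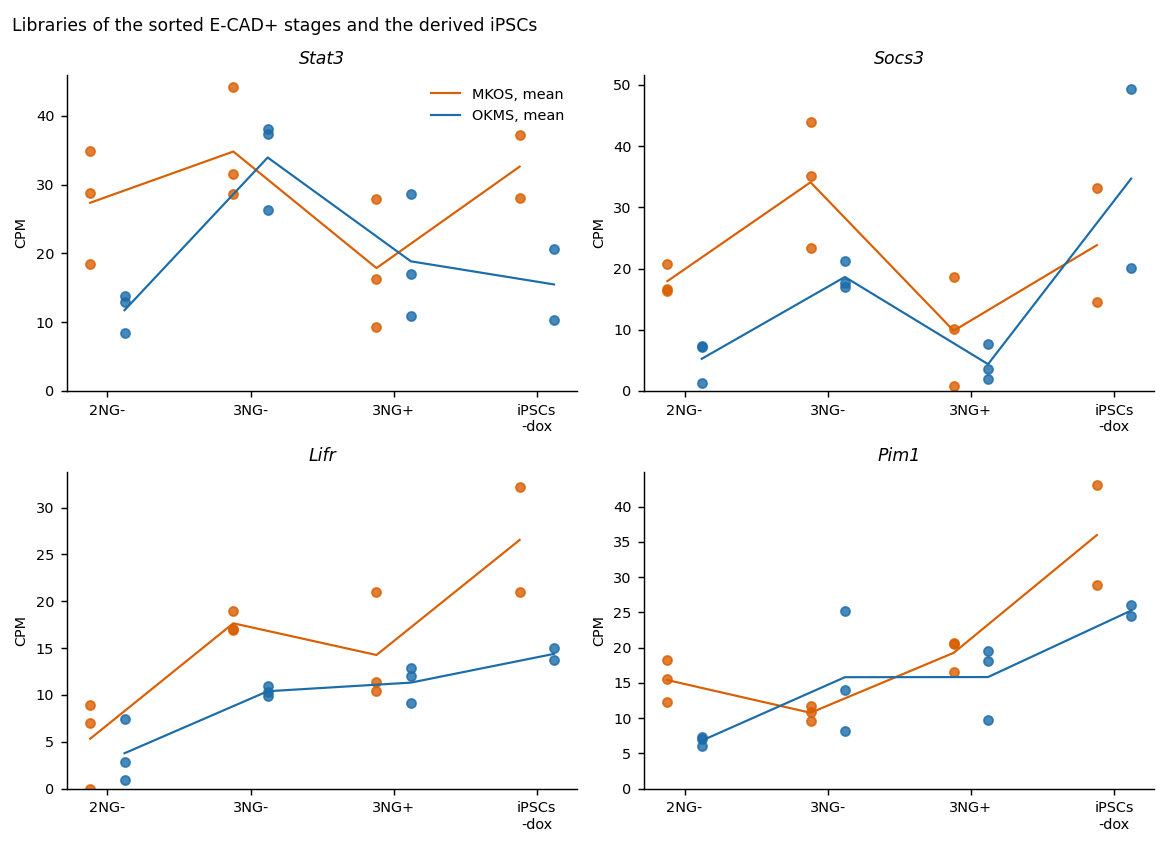
CPM of Stat3, Socs3, Lifr and Pim1 in each library of the E-CAD+ 2NG-, 3NG- and 3NG+ populations and of iPSCs -dox, with the mean of each condition, for MKOS and OKMS. Socs3 is lower in 3NG+ than in 3NG- libraries with both cassettes and reaches 49.3 CPM in an OKMS iPSC library, and Stat3 starts from 8.40 to 13.9 CPM in OKMS 2NG- cells.

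None of the 7 genes was called in the comparisons made between kinds of established pluripotent cells. D6 iPSCs, TNG ESCs and E14 ESCs were part of no comparison. Between iPSCs -dox and the TNG MKOS and TNG OKMS ESCs, 0 of 7 genes were called and 0 had an unadjusted p under 0.05 by edgeR, with 0 called by DESeq2 (1.4% of all tested genes called). The 95% intervals of the log2 differences were narrowest for Jak1 (-0.66 to 0.39) and widest for Lif (-2.25 to 1.19), around differences of -0.58 (Pim1) to 0.39 (Stat3). Between iPSCs in 2i medium, in which MEK and GSK3 are inhibited, and iPSCs -dox the counts were the same (0 called by edgeR and DESeq2, 0 at an unadjusted p under 0.05; 4.34% of all tested genes called), with intervals of -0.32 to 0.83 for Stat3 and -1.45 to 0.51 for Socs3, and differences between -0.47 (Socs3) and 0.39 (Il6st) over the 7 genes. The response to 2i did not differ detectably between the cassettes for any member (0 called by edgeR or DESeq2, 0.0064% of all tested genes called). Stat3 had the 1 unadjusted p under 0.05 there: it read 37.2 and 28.0 CPM in MKOS iPSCs -dox and 23.8 and 26.4 CPM in 2i, against 10.3 and 20.7 CPM and then 33.6 and 31.8 CPM in OKMS iPSCs (1.38 ± 0.59, FDR 0.58). The other 6 genes lay between -1.99 (Lif) and 1.04 (Lifr), with FDR values of at least 0.78.

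A list of 35 further pathway genes (other ligands and receptors of the family, kinases, STATs, inhibitors, adaptors and targets, with Klf4 and Myc left out because the cassettes carry them) placed the 7 in context, and all 35 were tested. From MEFs to ESCs 9 rose and 14 fell (50.9% of all tested genes were called), with a median log2 difference of -1.25 against 0 over all genes. The oncostatin M receptor gene Osmr, which pairs with gp130, was at 59.9 to 124 CPM in the MEFs and had no read in the ESCs, at least 1006-fold lower against 3 reads over the group. Il6, encoding interleukin-6, went from 3.34 to 9.11 CPM to no read (at least 62.0-fold lower). Tfcp2l1 and Gbx2, transcription factor genes known as STAT3 targets in ESCs, were on the other side, at no more than 0.409 and 0.229 CPM in the MEFs and 55.1 to 79.8 and 11.1 to 27.1 CPM in the ESCs (FDR 1.2e-12 and 1.9e-07).

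From MEFs to MKOS 2NG- cells 1 of the 35 rose and 10 fell (27% of all tested genes called), to OKMS E-CAD- 2NG- cells 2 rose and 13 fell (21.8%), and to OKMS E-CAD+ 2NG- cells 4 rose and 12 fell (29.2%). Tfcp2l1 rose in all 3, to 39.7 to 98.9 CPM in MKOS 2NG- cells (FDR 6.7e-08), 0.326 to 4.81 CPM in OKMS E-CAD- cells (at least 10.8-fold higher than the MEFs, which had no read; FDR 0.0043) and 11.9 to 37.7 CPM in OKMS E-CAD+ cells (at least 89.3-fold higher, FDR 2.4e-07). Pim2, which encodes a relative of PIM1, rose in both OKMS populations from 0.186 and 0.344 CPM in OKMS MEFs, to 11.6, 27.5 and 17.6 CPM in E-CAD- cells (5.95 ± 1.22, FDR 0.00031) and 21.1, 30.9 and 85.7 CPM in E-CAD+ cells (7.45 ± 1.24, FDR 1.1e-05), and was called in 11 of 11 alternatives in each. Osmr fell in MKOS 2NG- cells to 4.43 to 8.88 CPM (-4.02 ± 0.74, FDR 8.7e-05) and in OKMS E-CAD+ 2NG- cells to 0.645 to 1.41 CPM (-5.89 ± 0.84, FDR 1.8e-06). In OKMS E-CAD- 2NG- cells Osmr was also low, at 7.02, 7.55 and 5.54 CPM against 59.9 and 82.6 CPM in OKMS MEFs. The interleukin-11 receptor gene Il11ra1 fell in MKOS 2NG- cells from 45.1 and 57.6 CPM to 2.03 to 2.21 CPM (-4.61 ± 1.01, FDR 0.00053). Among ligand genes, Ctf1 fell in MKOS 2NG- cells to at most 0.406 CPM (FDR 0.045), Clcf1 in OKMS E-CAD- cells from 5.15 and 5.20 CPM to no read (at least 24.7-fold, FDR 0.022) and Il11 in OKMS E-CAD+ cells from 11.3 and 12 CPM to no read (at least 90.7-fold, FDR 0.018). The receptor gene Il6ra fell in OKMS E-CAD- cells to at most 0.190 CPM (FDR 0.043). The calls of the low genes were the least stable: of 11 alternative analyses, 4 kept Il6ra, 6 Ctf1, 6 Clcf1 and 8 Il11.

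Pim2 differed between cassettes in all 3 E-CAD+ populations, and it went the other way from the 3 members called between cassettes. It read 21.1, 30.9 and 85.7 CPM in OKMS and 4.49, 6.94 and 2.85 CPM in MKOS 2NG- cells (3.41 ± 0.76, FDR 0.0037), 42.7, 22.1 and 73.7 CPM and 3.13, 3.78 and 10.4 CPM in 3NG- cells (3.14 ± 0.74, FDR 0.013), and 23.5, 16.8 and 39.8 CPM and 5.47, 0 and 5.45 CPM in 3NG+ cells (3.04 ± 0.77, FDR 0.044). Every OKMS library was above every MKOS library of the same population, where the cassettes did not overlap for 25%, 21.7% and 17.2% of all tested genes. Osmr was lower with OKMS in 2NG- cells (-2.64 ± 0.76, FDR 0.035), and Tfcp2l1 in 3NG- cells, at 20.4, 11.4 and 37.4 CPM against 80.0, 113 and 158 CPM (-2.20 ± 0.51, FDR 0.011). The call of Pim2 was kept in 10 of 12 alternative analyses in 2NG- cells, 9 of 12 in 3NG- cells and 6 of 12 in 3NG+ cells, that of Osmr in 6 of 12 and that of Tfcp2l1 in 9 of 12. In all, 1 of the 35 was higher and 1 lower with OKMS in 2NG- cells, 1 and 1 in 3NG- cells and 1 and 0 in 3NG+ cells, where 5.07%, 2.17% and 0.685% of all tested genes were called.

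Between E-CAD+ and E-CAD- OKMS cells 1 of the 35 was higher and 1 lower at each stage (2.38% of all tested genes called in 2NG- and 1.75% in 3NG- cells). Tfcp2l1 was higher in E-CAD+ cells in 2NG- (3.40 ± 0.62, FDR 0.00084) and 3NG- cells (2.58 ± 0.58, FDR 0.0080). The kinase gene Jak2 was lower in E-CAD+ 2NG- cells, at 0 to 1.36 CPM against 4.57 to 10.6 CPM (-2.75 ± 0.64, FDR 0.0093), and Osmr in E-CAD+ 3NG- cells (-2.63 ± 0.71, FDR 0.044; called in 5 of 12 alternatives).

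Along the route to iPSCs few of the 35 were called. From 2NG- to 3NG- 1 rose with MKOS (0.39% of all tested genes called), Gbx2, from no read to 1.73 to 6.03 CPM (at least 29.2-fold, FDR 0.011), and 0 with OKMS by edgeR (3 at an unadjusted p under 0.05, 0 by DESeq2). From 3NG- to 3NG+ 1 rose with MKOS and 4 with OKMS (1.58% and 6.26% of all tested genes called), and the adaptor gene Gab1 was in both counts, from 8.81 to 13.2 CPM to 28.0 to 41.4 CPM with MKOS (1.86 ± 0.45, FDR 0.022) and from 4.28 to 7.77 CPM to 16.8 to 31.7 CPM with OKMS (2.16 ± 0.47, FDR 0.0038). The others with OKMS were Gbx2 (FDR 0.046), Pim3 (1.00 ± 0.27, FDR 0.018) and the survival gene Mcl1 (0.76 ± 0.24, FDR 0.044), called in 5 of 11, 7 of 12 and 3 of 12 alternatives. No gene of the list was called by edgeR from 3NG+ cells to iPSCs with MKOS (6 at an unadjusted p under 0.05, 2 by DESeq2) or OKMS (7 and 0), or from iPSCs to ESCs (4 and 1).

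In 2i medium, where none of the 7 genes was called, 1 of the 35 was higher and 3 were lower (4.34% of all tested genes called). Tfcp2l1 read 232, 294, 228 and 255 CPM in 2i and 86.4, 28.7, 23.5 and 65.2 CPM in iPSCs -dox (2.23 ± 0.43, FDR 0.0011), so the groups lay well apart. Pim3 read 38.7, 38.9, 23.3 and 22.8 CPM in 2i and 90.1, 58.9, 64.1 and 67.7 CPM without it (-1.33 ± 0.23, FDR 0.00028). Zfp36, which encodes an RNA-binding protein that destabilises messages (-1.94 ± 0.54, FDR 0.029), and Mcl1 (-0.84 ± 0.20, FDR 0.0092) were the other genes that fell, Zfp36 in 6 of 14 and Mcl1 in 12 of 14 alternatives.

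**Figure D5:**
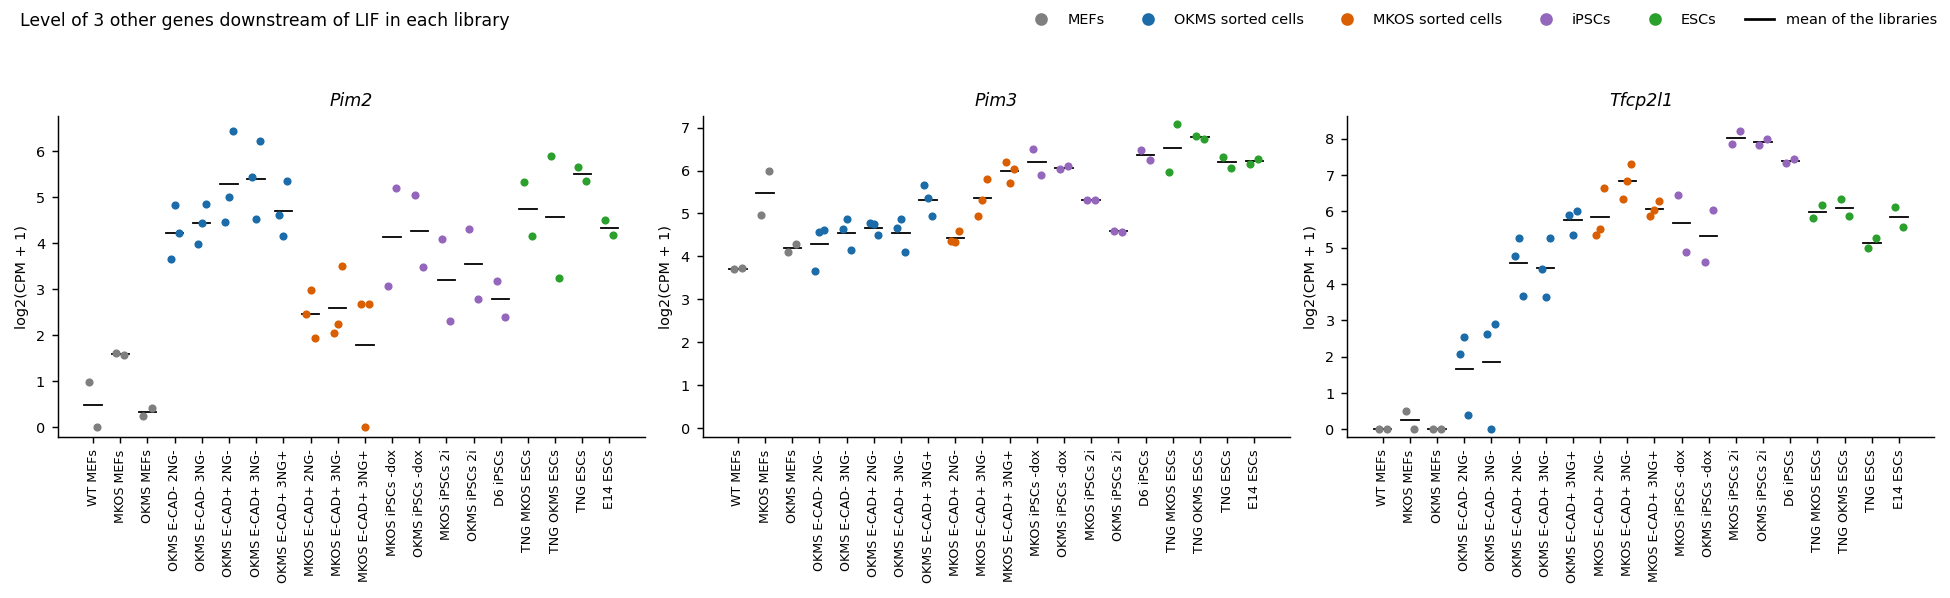
Level of Pim2, Pim3 and Tfcp2l1 in every library as log2(CPM + 1), with the 20 conditions along the horizontal axis, points for libraries and bars for means. Pim2 is higher in OKMS than in MKOS sorted cells, and in 2i iPSCs Tfcp2l1 is above and Pim3 below the iPSCs -dox.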

How the data were processed

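RNA-seq libraries had been made by STRT, a method that counts reads at the cap end of transcripts, in 48 libraries of 20 conditions. Per the labels and methods, the authors aligned reads with Bowtie 0.12.7. The methods name build mm9, the processing notes mm10, and 98.99% of the positions lay within the matching gene in GRCm38 (8.07% in mm9). The deposited values were raw read counts per transcript; rows of repeats (14.2% to 33.1% of the reads) were left out of library sizes and tests. CPM used reads on transcripts, and patterns used log2(CPM + 1).

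Counts were tested with edgeR 4.0.16 (R 4.3.3; quasi-likelihood, TMM, filterByExpr, 1 coefficient per condition over all 48 libraries, Benjamini-Hochberg FDR at most 0.05 over 15630 genes), checked first on simulated counts. The ± values are SE, and log2 differences are of fitted values. The 95% intervals take the SE with a normal distribution and are slightly narrower than the test allows. An interval that just excludes 0 can therefore go with an unadjusted p above 0.05. DESeq2 1.42.0 and the other alternatives are described in the closing section. In each comparison all 7 members are given by value or by their range, and of the 35 listed genes up to 4 called ones with the largest change are named. Members and lists were chosen with earlier results of these data known. A fold against a group without reads used a floor of 3 reads over the group. No label says that libraries came from separate cultures, so p-values measure the spread between libraries, which may be technical. The floor of 3 reads covers counting error only. Sequences were RefSeq GRCm38.p6, matched by symbol (7 of 7 members).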

Additional observations from a re-analysis of the deposited data

Results flagged for a closer look

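The highest or lowest library stood far from the rest in 3 of 49 sets of 6 to 10 libraries examined, by Dixon's criterion, which chance alone meets in about 1 set in 20. Lifr was at 21.0 CPM in MKOS E-CAD+ 3NG+ 3, with the next of the 6 3NG+ libraries at 12.9 CPM. Pim1 was at 9.79 CPM in OKMS E-CAD+ 3NG+ 2, with the next lowest of these 6 libraries at 16.6 CPM. OKMS E-CAD+ 3NG+ 2 was the shallowest library, with 1429717 reads on transcripts, and its Pim1 value rests on 14 reads. Socs3 was at 49.3 CPM in OKMS iPSCs -dox 1, with the next of the 10 iPSC libraries at 33.1 CPM.

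The change from MEFs to E-CAD+ 2NG- cells differed between cassettes for 2 of the 35 other pathway genes. For Pim2 the OKMS change exceeded the MKOS change by 6.28 ± 1.51 on the log2 scale (FDR 0.019), from 0.186 and 0.344 CPM in OKMS MEFs and 2.05 and 1.99 CPM in MKOS MEFs. The call was kept in 10 of 16 alternatives, and the fitted size depends on the 4 reads found in the OKMS MEFs. For Pim3 the difference was 1.77 ± 0.42 (FDR 0.018, kept in 12 of 16), from 16.1 and 18.7 CPM to 26.2, 25.8 and 21.5 CPM with OKMS and from 30.4 and 62.3 CPM to 19.4, 19.2 and 23.3 CPM with MKOS, so that the libraries moved in opposite directions.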

How the results depend on the processing

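Of 23 called values of single members, 15 kept their call and direction in every alternative and 8 lost the call in some; over 48 values with a call or an unadjusted p under 0.05, 508 alternative values stayed on the same side of the threshold, 41 lost and 21 gained a call, and 0 changed direction. Among 92 other values, 106 of 1198 alternative values had another sign. The number of members called moved as follows, and the cause was not tested. Without the filter on low counts it was 1 for OKMS minus MKOS in 3NG+, 2 for E-CAD+ minus E-CAD- in 2NG- and 2 in 3NG-, 1 for MKOS and 2 for OKMS 2NG- to 3NG-, 1 each for MKOS and OKMS 3NG- to 3NG+, and 1 for MKOS 3NG+ to iPSCs; Socs3 gained a call there in 6 comparisons where its unadjusted p was already under 0.05 (FDR 0.00019 to 0.020). Without the 7 sorted libraries that the averages of the study's expression table leave out, it was 1 for OKMS minus MKOS in 2NG- and 1 in 3NG+, 2 for OKMS 3NG- to 3NG+ and 0 for OKMS 3NG+ to iPSCs. DESeq2 gave 1 for OKMS minus MKOS in 3NG+, 1 for OKMS 2NG- to 3NG- and 1 for OKMS 3NG- to 3NG+. With only the libraries compared in the fit it was 5 for OKMS MEFs to E-CAD- 2NG-, 1 for OKMS minus MKOS in 2NG- and 0 for E-CAD+ minus E-CAD- in 2NG-. Leaving out each library in turn gave 3 to 5 from MEFs to ESCs, 0 to 2 for OKMS minus MKOS in 2NG-, 0 to 1 in 3NG+, 0 to 1 for E-CAD+ minus E-CAD- in 2NG- and 0 to 1 for OKMS 3NG+ to iPSCs, in fits that kept the tested genes of the full fit. DESeq2 size factors in place of TMM moved the median of all genes by -0.15 from MEFs to ESCs, -0.14 from MEFs to MKOS and -0.13 to OKMS E-CAD+ 2NG- cells, and left every count of called members within 1.5 times. CPM scaled by TMM or without the 7 libraries moved 9 of 189 condition levels by more than their SD.

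With replicate number as a block, 1 member was called from OKMS 3NG- to 3NG+ (Socs3, -2.01, FDR 0.036), and no other count of called members moved by over 1.5 times. The numbers pair nothing by the labels: over 84 same-numbered pairs of sorted libraries the correlation of deviations averaged 0.10 (-0.059 to 0.44; 36 over 0.1), although 20 of 24 sorted libraries lay closest to their own number, a hint from the data and not from the design. Within conditions no library duplicated another (chi-square per degree of freedom 13.4 to 62.0 over 36 replicate pairs). Lif, with 898 reads in all, is limited by depth.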

Other observations

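The genes whose condition means followed each member most closely over the 20 conditions, among 15629 other tested genes, were found by Pearson r on the log2(CPM + 1) scale as a description. For Jak1 they were Serinc3 (r = 0.95), Copa (0.95) and Copb1 (0.94), the latter pair encoding coat proteins of Golgi vesicles. For Il6st they were Arhgap20 (0.94), Serpina3g (0.93) and Tnfaip6 (0.93), and for Stat3 they were Usp47 (0.94), Rab13 (0.93) and Prkar1b (0.92). Socs3 was closest to Man2b1 (0.86), Ift80 (0.84) and Esyt1 (0.83), Lifr to Fblim1 (0.89), Cnp (0.84) and Dennd2a (0.83), and Lif to 3300005D01Rik (0.81), Unc45a (0.81) and Plekhn1 (0.80). Pim1, the member that was highest in pluripotent cells, was closest to Tm4sf5 (0.88), Rbm44 (0.87) and Wdtc1 (0.86). No member was among the 3 closest genes of another member.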
